A study of Mus musculus with 8 samples.

Results

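Kruppel-like factors are transcription factors that bind GC boxes and CACCC boxes in DNA through a row of 3 zinc fingers at the end of the protein. The genes followed here are the 8 members of the family studied in T cells, namely Klf2, Klf3, Klf4, Klf6, Klf7, Klf10, Klf12 and Klf13. They were taken from the count table by gene symbol, and all 8 were found among its 24976 genes and passed the low-count filter that left 13073 genes for testing.

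RNA was sequenced in bulk from CD8 T cells sorted out of tumours of B16-OVA, a melanoma line of the mouse engineered to make ovalbumin. The hosts were Rag2-/- mice, which cannot make lymphocytes with antigen receptors, and they bore the tumour for 10 days before CD8 T cells were transferred and for a further 10 days before the cells were taken. There were 2 libraries for each of 4 groups, called here PD1+Tim3+ labelled dKO, PD1+Tim3+ WT, PD1+Tim3- labelled dKO and PD1+Tim3- WT. Per the labels each library came from 1 host mouse, so that every p-value rests on 2 host mice per group. The dKO donors carried Cd8Cre, Nr4a1 flox/flox, Nr4a2 flox/flox and OT-I Tg/+, where OT-I is a T cell receptor specific for ovalbumin. Cre driven from Cd8 removes floxed sequence in cells that express it, and the labels name WT donors only as WT, without saying whether they carried OT-I or Cre. Any difference in receptor specificity or Cre between the donors cannot be told apart from the genotype. PD1 and Tim3 are inhibitory receptors of chronically stimulated T cells, and Tim3 marks the more differentiated of the PD1+ cells.

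Total counts ran from 1944999 to 13418762 per library, and the 7 measured genes of the CD8 T cell marker list summed to 4630 to 6170 CPM (counts scaled to a common library size with TMM factors, the scale of every level below). Havcr2, which encodes Tim3, stood at 41.8 to 58.2 CPM in PD1+Tim3+ libraries and at 2.28 to 3.62 CPM in PD1+Tim3- libraries, as the sort labels say. Nr4a1 went against the genotype label, with 1190 and 1170 CPM in PD1+Tim3+ libraries labelled dKO against 803 and 789 CPM in WT, and 1330 and 1490 CPM in PD1+Tim3- libraries labelled dKO against 979 and 824 CPM in WT. Nr4a2, the other floxed gene, stood at 954 and 984 CPM in PD1+Tim3+ libraries labelled dKO against 1030 and 979 CPM in WT. In PD1+Tim3- libraries it stood at 937 and 929 CPM with the label dKO against 990 and 958 CPM in WT. The labels do not name the floxed exons, so counts over a whole gene do not settle the genotype, and every genotype difference below is one between labels. The Y-linked Ddx3y ran from 48.8 to 58.0 CPM in the 4 libraries labelled dKO against 18.9 to 31.4 CPM in the 4 WT libraries, and Xist from 671 to 690 CPM against 854 to 955 CPM. Ddx3y also differed between populations, at 19.7 and 18.9 CPM in PD1+Tim3+ WT against 31.4 and 24.9 CPM in PD1+Tim3- WT. In libraries labelled dKO it went the other way, at 56.8 and 58.0 CPM against 49.8 and 48.8 CPM. Xist overlapped between the populations in WT. Genes of the sex chromosomes thus moved with the genotype label, and Ddx3y also with the sort. The part of sex in the results was not tested. Ddx3y and Xist were detected in every library. These values do not show how many donors gave the cells of a group. The p-values between genotype labels may therefore measure the spread between hosts and not between donors.

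KLF2 keeps resting T cells quiescent and in circulation by driving S1pr1, and is lost when the T cell receptor is engaged. KLF4 restrains the division of CD8 T cells. KLF6 and its close relative KLF7 are activators, while KLF3 and KLF12 are repressors that recruit the CtBP corepressors. KLF10 and KLF13 form a further branch that recruits SIN3A; KLF10 is induced by TGF-beta, and KLF13 was described in human T cells as an activator of the chemokine gene Ccl5.

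The coding sequence of the last zinc finger shows how the 8 genes are related, and how far their reads can be told apart. Each line runs 5′ to 3′ on the coding strand and was read by coordinates from the GRCm38 genome, and the capitals mark the codons of the 2 cysteines and 2 histidines that hold the zinc ion.
Klf2: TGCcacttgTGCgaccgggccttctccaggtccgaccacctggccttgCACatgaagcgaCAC
Klf4: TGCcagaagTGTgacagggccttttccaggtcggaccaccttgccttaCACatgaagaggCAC
Klf6: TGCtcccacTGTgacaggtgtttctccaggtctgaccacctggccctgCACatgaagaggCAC
Klf7: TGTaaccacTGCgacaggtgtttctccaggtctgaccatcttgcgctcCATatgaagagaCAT
Klf3: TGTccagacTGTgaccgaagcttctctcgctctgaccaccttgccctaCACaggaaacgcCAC
Klf12: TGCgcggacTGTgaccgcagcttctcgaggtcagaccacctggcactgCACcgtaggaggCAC
Klf10: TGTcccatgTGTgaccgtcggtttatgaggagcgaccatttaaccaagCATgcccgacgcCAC
Klf13: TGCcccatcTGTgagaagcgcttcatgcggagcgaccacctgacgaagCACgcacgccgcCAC

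All 8 stretches are 63 bases long. Klf10 and Klf13 shared 74.6% of their bases with each other and 47.6% to 58.7% with the other 6 genes. Klf2 and Klf4 shared 82.5%, as did Klf6 and Klf7, and Klf3 and Klf12 shared 73%. Over this stretch Klf3 was as close to Klf6, also at 73%, and Klf12 was closer to Klf6, at 77.8%, than the repressors were to each other. Over the whole coding transcripts, the longest exact run that any member shared with another gene of the KLF and SP families was 26 bases, between Klf6 and Klf7. A shared run of that length lies within the fingers printed above. The finger of Klf2 lies in 1 coding exon at chr8:72320851-72320913 on the forward strand, that of Klf4 at chr4:55528131-55528193 on the reverse strand, and that of Klf3 at chr5:64829084-64829146 on the forward strand. Those of Klf12 (chr14:99875145-99875207), Klf10 (chr15:38295995-38296057) and Klf13 (chr7:63891628-63891690) lie in 1 coding exon each on the reverse strand. The finger of Klf6 is split over 2 coding exons between 5866746 and 5867277 on the forward strand of chromosome 13, and that of Klf7 over 2 between 64035719 and 64042330 on the reverse strand of chromosome 1. Klf13 overlaps E030018B13Rik and Gm27252 on the other strand, and Klf7 holds Mir6899. No source used here gives the strand setting of the counting, so reads of Klf13 and of those 2 antisense genes cannot be told apart.

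The promoters of Klf3 and Klf6 are printed as examples, from a member that fell and a member that rose with Tim3. Both are 300 bases, from 250 before to 50 after the RefSeq start site in GRCm38.p6, read 5′ to 3′ on the forward strand, which is the strand of both genes. Capitals mark GC boxes (GGGCGG) and CACCC boxes (CCACCC), each searched on both strands.
Klf3 chr5:64803271-64803570: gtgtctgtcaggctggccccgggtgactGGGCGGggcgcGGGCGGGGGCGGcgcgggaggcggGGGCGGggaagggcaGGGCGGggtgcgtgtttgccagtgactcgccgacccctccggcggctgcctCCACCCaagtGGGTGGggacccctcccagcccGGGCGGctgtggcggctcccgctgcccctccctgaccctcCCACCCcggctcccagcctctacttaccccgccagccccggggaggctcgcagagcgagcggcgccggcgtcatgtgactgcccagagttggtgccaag
Klf6 chr13:5861239-5861538: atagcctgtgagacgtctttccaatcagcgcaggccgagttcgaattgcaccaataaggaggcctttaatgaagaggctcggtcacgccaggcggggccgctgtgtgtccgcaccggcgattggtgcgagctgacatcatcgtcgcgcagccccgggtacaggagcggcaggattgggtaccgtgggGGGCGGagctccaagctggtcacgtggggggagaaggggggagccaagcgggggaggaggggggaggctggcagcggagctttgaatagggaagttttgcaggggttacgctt

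The Klf3 promoter held 6 GC boxes and 3 CACCC boxes in sequence that is 76.7% G and C. The Klf6 promoter held 1 GC box, no CACCC box, 4 CCAAT boxes (CCAAT on either strand) and 1 E-box (CACGTG) in sequence that is 63% G and C. The promoter of Klf13, whose levels ran with those of Klf6 (Pearson r 0.905), held 3 GC boxes and 1 CACCC box at 72% G and C. Whether these letters go with the direction of change was not tested. RefSeq promoters were matched for 7 members, all but Klf10. A GC box was present in 6 of these 7 and in 35.7% of all 32851 promoters of that length, a CACCC box in 4 of 7 and 31.5%, a CCAAT box in 2 of 7 and 37.4%, and an E-box in 2 of 7 and 7.15%. The NR4A letters AAAGGTCA were found in 0 of 7 windows and in 1.51% of all promoters, and the forkhead letters GTAAACA in 0 of 7 and 3.65%, each on both strands. The GC content of the member promoters ran from 45.7% in Klf12 to 76.7% in Klf3, beside a median of 52.7% over all promoters. The Klf12 window, chr14:100149747-100150046 on the reverse strand, lies well inside the gene, which is annotated to 100284679. Its letters and GC content describe that RefSeq start site and not one at the outer end of the gene. GC and CACCC boxes can share letters where they abut, as 1 pair does in Klf13, and a match is a description of letters and not of a bound site.

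**Figure D1:**
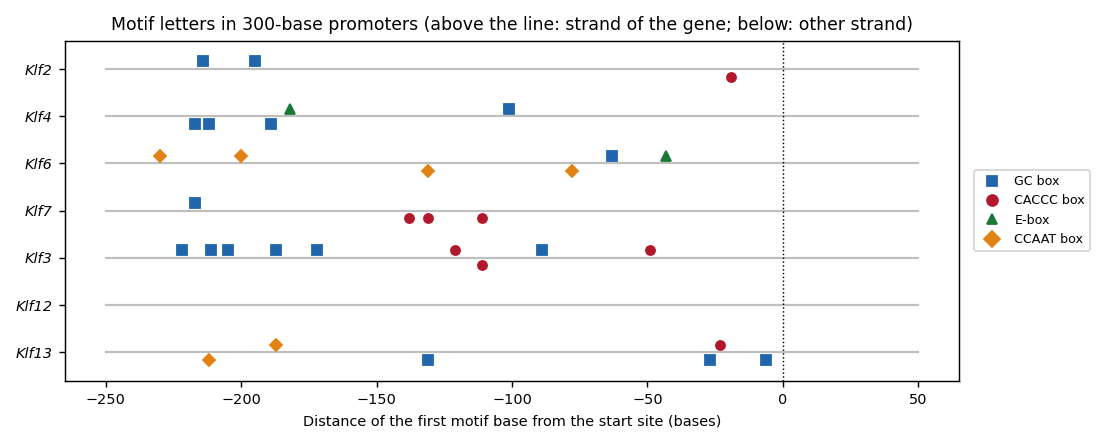
Position of motif letters in the 300-base promoters of 7 members, with distance from the RefSeq start site in bases on the x axis and 1 row per gene, marks above the line being on the strand of the gene and marks below it on the other strand. Klf3 holds 6 GC boxes and 3 CACCC boxes, Klf6 holds 4 CCAAT boxes, and Klf12 holds none of the 4 motifs drawn. The Klf12 window lies well inside the annotated gene and not at its outer end.

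Per kilobase of coding transcript, Klf6 was the most abundant member, at 68.0 ± 14.1 CPM per kb (mean and SD over the 8 libraries), followed by Klf13 at 41.4 ± 4.03. Klf4 stood at 27.4 ± 4.51, Klf2 at 22.6 ± 1.66, Klf10 at 15.9 ± 5.0 and Klf3 at 10.9 ± 2.79 CPM per kb. Klf7 was low at 6.17 ± 0.563, and Klf12 was near the limit of detection at 0.425 ± 0.281 CPM per kb, with 145 counts over all 8 libraries. Klf6, Klf13 and Klf12 were apart from their neighbours in this order in every library, while the ranges of Klf4 and Klf2, Klf2 and Klf10, Klf10 and Klf3, and Klf3 and Klf7 overlapped. The 8 members held 92.4% to 94.7% of all counts on the 17 KLF genes of the table. Klf6 and Klf13 together held 65.3% and 61.6% of family counts in the PD1+Tim3+ libraries labelled dKO and 67.3% and 68.5% in PD1+Tim3+ WT, against 55.5% and 58.2% in PD1+Tim3- labelled dKO and 60.0% and 59.4% in PD1+Tim3- WT. Summed over the 8 members, levels were 880 to 921 CPM in the 4 PD1+Tim3+ libraries and 740 to 780 CPM in the 4 PD1+Tim3- libraries.

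**Figure D2:**
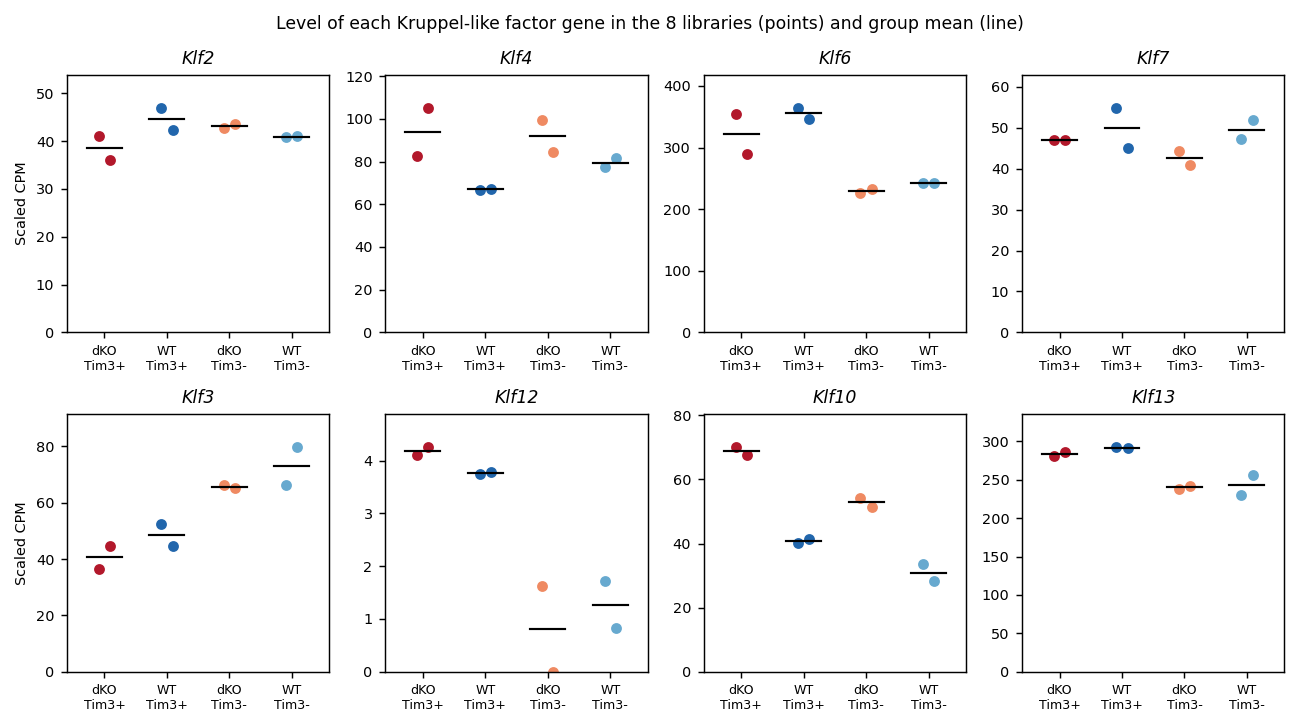
Level of each of the 8 genes in CPM on TMM-scaled library sizes (y axis from 0, a scale of its own per gene) in the 4 groups on the x axis, all PD1+, where points are libraries and lines are means of 2. Klf10 separates all 4 groups, Klf3 is lower and Klf6 higher in the PD1+Tim3+ libraries, and Klf2 and Klf7 stay within 36.0 to 46.9 and 40.9 to 54.8 CPM.

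Differences were tested with edgeR over all 13073 genes, and a gene was called at an adjusted p under 0.05. In PD1+Tim3+ cells, 1 of 8 members was called between the libraries labelled dKO and WT, beside 0.627% of all genes, and it rose, beside 0.26% of all genes called higher and 0.367% lower. Here 2 members had an unadjusted p under 0.05, beside 12% of all genes. In PD1+Tim3- cells, 0 of 8 members were called by edgeR, DESeq2 or limma-voom, beside 0.0459% of all genes by edgeR, 0.0153% higher and 0.0306% lower, and 1 member had an unadjusted p under 0.05, beside 8.27% of all genes. Between the populations, 3 of 8 members were called in WT, 2 higher and 1 lower, beside 17% of all genes called, 8.25% higher and 8.76% lower, and 5 had an unadjusted p under 0.05, beside 31.6%. Within the libraries labelled dKO, 2 of 8 were called, 1 higher and 1 lower, beside 9.93% of all genes called, 5.21% higher and 4.72% lower, and 4 had an unadjusted p under 0.05, beside 23.7%. Both of these unadjusted counts between populations include Klf12, which passed the low-count filter through its PD1+Tim3+ libraries. Its separation is in part a condition of its being tested. The median log2 fold change of the members was -0.06 between genotype labels among PD1+Tim3+ cells and -0.05 among PD1+Tim3- cells, beside 0.01 and -0.01 over all genes tested. Between populations it was 0.18 in cells labelled dKO and 0.19 in WT, beside 0.01 over all genes in both. In bulk RNA, fewer cells of a type and less RNA per cell cannot be told apart, and this holds for every difference below.

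**Figure D3:**
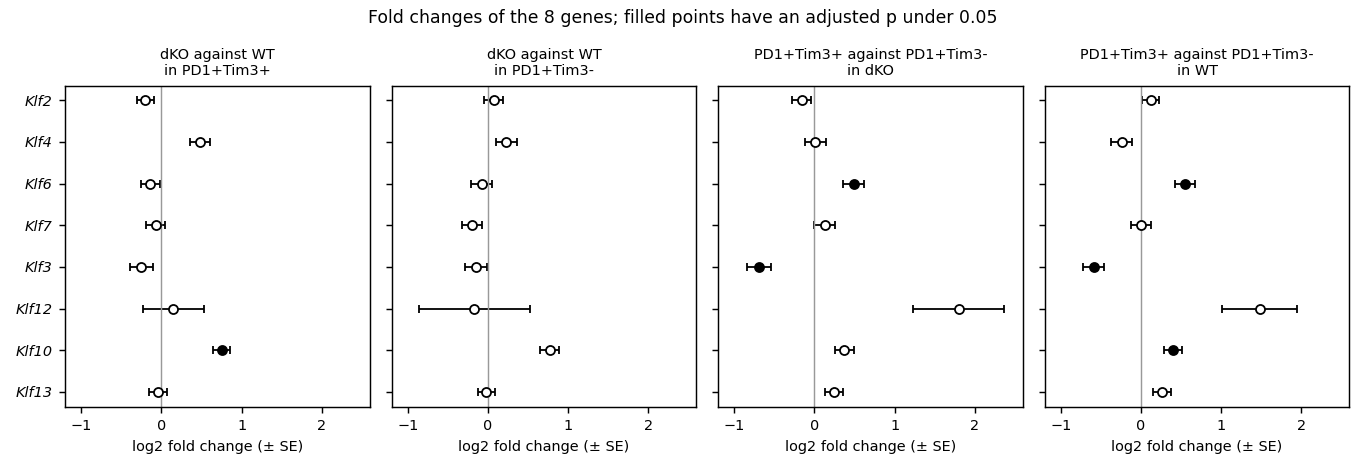
Log2 fold change with its standard error (x axis) for the 8 genes (rows) in the 4 comparisons (panels), the first-named group over the second. Filled points mark the calls, which are Klf10 in PD1+Tim3+ labelled dKO against WT, Klf3 and Klf6 between populations in both genotypes, and Klf10 between populations in WT.

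Klf10, the TGF-beta-inducible repressor, was the member that followed the genotype label. It stood at 70.0 and 67.6 CPM in PD1+Tim3+ libraries labelled dKO, against 40.3 and 41.5 CPM in PD1+Tim3+ WT libraries. Among PD1+Tim3- cells its level was 54.3 and 51.4 CPM with the label dKO, against 33.6 and 28.2 CPM in WT. The 4 groups did not overlap at any step, and even the PD1+Tim3- libraries labelled dKO lay above the PD1+Tim3+ WT libraries. In PD1+Tim3+ cells the log2 fold change was 0.75 with a 95% interval of 0.51 to 0.99, a 1.68-fold higher level. The same contrast in PD1+Tim3- cells gave 0.77 ± 0.12 (SE), interval 0.51 to 1.04, a 1.71-fold ratio that was not called at an adjusted p of 0.0746. The difference between the 2 genotype contrasts was -0.03 ± 0.16, adjusted p 0.972, with an interval of -0.38 to 0.33.

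The Klf10 call between genotype labels was lost without either of the WT libraries of PD1+Tim3+. Without replicate 1 of that group the fold change in PD1+Tim3+ cells was 0.73 with an adjusted p of 0.176, and without replicate 2 it was 0.76 at adjusted p 0.188. In PD1+Tim3- cells the fold change became a call, at 0.77 in both cases, without replicate 1 (adjusted p 0.0339) or replicate 2 (adjusted p 0.0333) of PD1+Tim3+ labelled dKO. These libraries are in neither arm of that contrast, and leaving them out changed the estimate of spread, the scaling and the set of genes tested together. The fold change itself stayed between 0.72 and 0.78 among PD1+Tim3+ cells and between 0.66 and 0.93 among PD1+Tim3- cells with 1 library left out.

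Klf10 also differed between the populations. In WT it rose to 40.9 ± 0.842 CPM in PD1+Tim3+ cells, against 30.9 ± 3.79 CPM in PD1+Tim3- cells (mean ± SD of 2 libraries). This log2 fold change was 0.40 ± 0.11 with an adjusted p of 0.0356. For cells labelled dKO the levels were 68.8 ± 1.68 CPM in PD1+Tim3+ and 52.9 ± 2.02 CPM in PD1+Tim3- cells, 0.37 ± 0.12, adjusted p 0.0688, which was not called. The call in WT was lost under DESeq2 (adjusted p 0.277) and without any 1 of 6 libraries. Without PD1+Tim3- WT replicate 2 the value was 0.29 (adjusted p 0.21), and without PD1+Tim3- WT replicate 1 it was 0.55 (0.0656). The other losses were at adjusted p 0.124 and 0.191 on leaving out PD1+Tim3+ WT replicate 1 or 2, and at 0.0588 and 0.0555 on leaving out replicate 1 or 2 of PD1+Tim3- labelled dKO.

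KLF13 was the nearest relative of KLF10 among the 8 in its last finger, and its gene was next to Klf6 in level per kb. Klf13 stood at 281 and 286 CPM in PD1+Tim3+ labelled dKO and 292 and 291 CPM in PD1+Tim3+ WT, against 238 and 242 CPM in PD1+Tim3- labelled dKO and 230 and 256 CPM in PD1+Tim3- WT. Every PD1+Tim3+ library lay above every PD1+Tim3- library. The log2 fold changes between populations were 0.24 ± 0.11 in cells labelled dKO, adjusted p 0.219, and 0.26 ± 0.11 in WT, adjusted p 0.124, and neither was called. Between genotype labels the difference was -0.04 ± 0.11 among PD1+Tim3+ cells, interval -0.28 to 0.20, and -0.02 ± 0.11 among PD1+Tim3- cells, interval -0.26 to 0.23.

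Of 9 genes known around KLF10 and KLF13, all measured, 1 was called between genotype labels among PD1+Tim3+ cells, beside 0.627% of all genes. Among PD1+Tim3- cells 0 were called by any of the 3 tools, beside 0.0459% of all genes by edgeR. There 2 had an unadjusted p under 0.05, beside 8.27% of all genes. The gene called among PD1+Tim3+ cells was Smad7, an inhibitor of TGF-beta receptor signalling, which rose to 223 ± 0.892 CPM with the label dKO, against 146 ± 14.9 CPM in WT, a log2 fold change of 0.62 ± 0.11 with an adjusted p of 0.0357. The Smad7 call held in 10 of 17 alternatives, and leaving out 1 library gave 0.51 to 0.72 and an adjusted p of up to 0.53, the last without PD1+Tim3+ WT replicate 2. Between populations, Ccl5, a chemokine gene that KLF13 activates, rose in cells labelled dKO to 2030 ± 630 against 784 ± 160 CPM (1.37 ± 0.20, adjusted p 0.00289) and in WT to 1570 ± 109 against 980 ± 4.92 CPM (0.68 ± 0.20, adjusted p 0.0394), PD1+Tim3+ given first. Smad3, a TGF-beta signal carrier, was called higher by edgeR in both genotypes, by 0.56 ± 0.15 in cells labelled dKO (adjusted p 0.0391) and 0.47 ± 0.13 in WT (adjusted p 0.0353). In WT alone, Tgfb1 (0.42 ± 0.12, adjusted p 0.0315) was called higher and the kinase gene Prpf4b (-0.34 ± 0.10, adjusted p 0.0436) lower, which does not show that the genotypes differ. Of these 4 genes DESeq2 called Ccl5 alone in both genotypes, and limma-voom called Ccl5 alone in cells labelled dKO and every one in WT. The call of Smad3 held in 7 of 18 alternatives in cells labelled dKO and in 9 of 18 in WT. The calls of Ccl5 in WT, Smad3, Tgfb1 and Prpf4b were each lost when 1 of several libraries was left out, while that of Ccl5 in cells labelled dKO held in all 18 alternatives. Between populations edgeR called 2 of the 9 genes in cells labelled dKO, both higher, beside 9.93% of all genes. In WT it called 3 higher and 1 lower, beside 17% of all genes. The list's median log2 fold change was 0.05 between genotype labels in PD1+Tim3+ cells, and 0.18 and 0.12 between populations in cells labelled dKO and in WT.

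Klf3, the CtBP-recruiting repressor, was the member that fell with Tim3. It stood at 36.5 and 44.7 CPM in PD1+Tim3+ libraries labelled dKO and 52.5 and 44.6 CPM in PD1+Tim3+ WT, against 66.1 and 65.1 CPM in PD1+Tim3- labelled dKO and 66.3 and 79.6 CPM in PD1+Tim3- WT. All 4 PD1+Tim3+ libraries lay below all 4 PD1+Tim3- libraries. In cells labelled dKO the log2 fold change was -0.69 ± 0.15 with an adjusted p of 0.0176, a ratio of 0.618, and in WT it was -0.59 ± 0.13 with an adjusted p of 0.0119, a ratio of 0.663. Between genotype labels the differences were -0.25 ± 0.14 (adjusted p 0.527) among PD1+Tim3+ cells, where the groups overlapped, and -0.15 ± 0.14 (adjusted p 0.835) among PD1+Tim3- cells.

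Each Klf3 call held in 15 of 18 alternatives, DESeq2 and limma-voom among them, and was lost without any 1 of 3 libraries. For cells labelled dKO these were PD1+Tim3- replicate 1 (-0.68, adjusted p 0.122), PD1+Tim3- replicate 2 (-0.70, 0.0847) and PD1+Tim3+ replicate 1 (-0.55, 0.0691). In WT they were PD1+Tim3+ replicate 1 (-0.71, 0.0509), PD1+Tim3+ replicate 2 (-0.46, 0.156) and PD1+Tim3- replicate 2 (-0.46, 0.0694). The sign was negative in every alternative.

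Klf12, the other repressor of this branch, was rare, and its levels lay the other way without passing the test. Its counts were 45 over the 2 PD1+Tim3+ libraries labelled dKO and 75 over the 2 PD1+Tim3+ WT libraries, against 9 and 0 in the PD1+Tim3- libraries labelled dKO and 16 over the 2 in WT. That is 4.10 and 4.25 CPM in PD1+Tim3+ labelled dKO and 3.74 and 3.78 CPM in PD1+Tim3+ WT, against 1.63 and 0 CPM in PD1+Tim3- labelled dKO and 1.71 and 0.829 CPM in PD1+Tim3- WT. In the library at 0, the least deep of all, 3 counts would be 1.57 CPM, so its value allows a level like that of the others in its population. The fitted log2 fold changes were 1.80 ± 0.57 in cells labelled dKO, adjusted p 0.0754, and 1.48 ± 0.47 in WT, adjusted p 0.0507, and neither was called by edgeR with the low-count filter. In cells labelled dKO limma-voom called Klf12 (2.65, adjusted p 0.0406), as did edgeR without the filter (1.80, adjusted p 0.0074), while DESeq2 did not (1.91, adjusted p 0.0996). The gene passed the low-count filter through its PD1+Tim3+ libraries, so its separation between populations is in part a condition of its being tested. The WT value was called in 8 of 18 alternatives, among them those that leave out 1 library labelled dKO, of PD1+Tim3- (adjusted p 0.0308 and 0.03) or of PD1+Tim3+ (0.0453 and 0.043).

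Of 10 corepressor genes of KLF proteins, all measured, 2 were called between populations in WT, beside 17% of all genes. Both were lower in PD1+Tim3+ cells, beside 8.76% of all genes called lower. Ctbp2, which encodes a CtBP partner of KLF3 and KLF12, stood at 8.68 ± 1.46 CPM in PD1+Tim3+ against 21.9 ± 6.63 CPM in PD1+Tim3- WT cells, a log2 fold change of -1.32 ± 0.33 with an adjusted p of 0.0204. Rcor1, a corepressor scaffold, gave -0.36 ± 0.11 with an adjusted p of 0.0404. The Ctbp2 call was lost with robust empirical Bayes and without PD1+Tim3- WT replicate 1 (-0.94, adjusted p 0.222) or either of the WT libraries of PD1+Tim3+, and the Rcor1 call held in 8 of 18 alternatives, DESeq2 not among them. Among cells labelled dKO 0 of 10 were called by any of the 3 tools, with 1 at an unadjusted p under 0.05 (Ctbp2, at -1.10 ± 0.41, adjusted p 0.128), and between genotype labels 0 of 10 in either population, with 0 at an unadjusted p under 0.05. Ctbp1, the other CtBP gene, gave 0.07 ± 0.11 between populations in cells labelled dKO and 0.32 ± 0.11 in WT (adjusted p 0.763 and 0.062), and limma-voom called the WT value, which is opposite in sign to those of Ctbp2 and Rcor1. The largest genotype values in this list were again those of Ctbp2, at -0.15 ± 0.40 in PD1+Tim3+ and -0.37 ± 0.36 in PD1+Tim3- cells.

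Klf6, the most abundant member, rose with Tim3. It stood at 354 and 290 CPM in PD1+Tim3+ libraries labelled dKO and 364 and 347 CPM in PD1+Tim3+ WT, against 226 and 233 CPM in PD1+Tim3- labelled dKO and 243 and 242 CPM in PD1+Tim3- WT. The populations did not overlap, and replicate 2 of PD1+Tim3+ labelled dKO was the lowest of its population. The log2 fold change was 0.49 ± 0.13 in cells labelled dKO, adjusted p 0.0348, and 0.55 ± 0.12 in WT, adjusted p 0.0113, or 1.40-fold and 1.47-fold. Between genotype labels it was -0.14 ± 0.12 (adjusted p 0.715) among PD1+Tim3+ cells and -0.08 ± 0.13 (adjusted p 0.909) among PD1+Tim3- cells.

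The WT call of Klf6 was lost without PD1+Tim3+ replicate 1 (0.52, adjusted p 0.099), PD1+Tim3+ replicate 2 (0.59, 0.068) or PD1+Tim3- replicate 1 (0.57, 0.0708). Its call in cells labelled dKO held in 9 of 18 alternatives. It was lost under DESeq2 (adjusted p 0.0525), in a fit of the 4 libraries alone (0.0867), and without PD1+Tim3+ replicate 1 (0.34, adjusted p 0.15), PD1+Tim3- replicate 1 (0.47, 0.196), PD1+Tim3- replicate 2 (0.51, 0.154) or either PD1+Tim3+ WT library (0.48 each, 0.0739 and 0.0738).

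The opposite shifts of Klf6 and Klf3 can be read within a library, where scaling plays no part. The ratio of Klf6 to Klf3 counts was 9.70 and 6.48 in PD1+Tim3+ labelled dKO and 6.93 and 7.79 in PD1+Tim3+ WT, against 3.43 and 3.57 in PD1+Tim3- labelled dKO and 3.66 and 3.03 in PD1+Tim3- WT. The PD1+Tim3+ libraries had the higher ratio throughout. Across the 8 libraries the log2 levels of Klf3 and Klf6 correlated at Pearson r -0.824, those of Klf6 and Klf13 at 0.905 and those of Klf3 and Klf13 at -0.759. These values describe 8 libraries that share the split into populations, and they are not tests.

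Klf7, the relative of Klf6, was not called in any comparison. It stood at 47.1 and 47.1 CPM in PD1+Tim3+ labelled dKO and 54.8 and 45.1 CPM in PD1+Tim3+ WT, against 44.3 and 40.9 CPM in PD1+Tim3- labelled dKO and 47.3 and 51.8 CPM in PD1+Tim3- WT. The intervals limit the log2 change to -0.33 to 0.19 between genotype labels in PD1+Tim3+ cells, -0.49 to 0.09 in PD1+Tim3- cells, -0.16 to 0.42 between populations in cells labelled dKO and -0.26 to 0.26 in WT.

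Klf4 was higher in the libraries labelled dKO without passing the test. Among PD1+Tim3+ cells its level was 82.5 and 105 CPM with the label dKO, against 66.7 and 67.3 CPM in WT, and in PD1+Tim3- cells at 99.5 and 84.5 CPM against 77.3 and 81.5 CPM. The groups did not overlap in either population, and the libraries labelled dKO differed more between themselves than the WT libraries did. The log2 fold changes were 0.48 ± 0.13 (adjusted p 0.154) among PD1+Tim3+ cells and 0.23 ± 0.13 (adjusted p 0.7) among PD1+Tim3- cells. Without replicate 1 of PD1+Tim3+ labelled dKO, the lower of that pair, the first value was 0.65 with an adjusted p of 0.0134, and without the low-count filter it was 0.46 with an adjusted p of 0.0386. Between populations Klf4 gave 0.01 ± 0.13 in cells labelled dKO, where the groups overlapped, and -0.24 ± 0.13 in WT, adjusted p 0.225.

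Klf2, the factor of quiescence, stood at 41.1 and 36.0 CPM in PD1+Tim3+ labelled dKO and 46.9 and 42.4 CPM in PD1+Tim3+ WT, against 42.7 and 43.6 CPM in PD1+Tim3- labelled dKO and 40.8 and 41.0 CPM in PD1+Tim3- WT. No comparison of Klf2 was called. Between genotype labels the log2 interval was -0.45 to 0.04 among PD1+Tim3+ cells and -0.19 to 0.34 among PD1+Tim3- cells, and between populations it was -0.43 to 0.11 in cells labelled dKO and -0.12 to 0.36 in WT.

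Macrophages and endothelium express Klf4 and Klf2, and their markers were low. Of the 12 macrophage and monocyte markers, 11 were measured. Nearly all of their summed level came from Ly6c2, which CD8 T cells express too, and without it the other 10 summed to 20.1 and 20.3 CPM in PD1+Tim3+ labelled dKO and 19.9 and 20.4 CPM in PD1+Tim3+ WT, against 23.7 and 9.45 CPM in PD1+Tim3- labelled dKO and 18.2 and 23.2 CPM in PD1+Tim3- WT. Csf1r reached at most 0.905 CPM in any library. Of the 10 markers of endothelium and fibroblasts, 9 were measured and summed to 22.6 to 41.0 CPM, mostly Pecam1, with Tek at 0 in all 8 libraries and Cdh5 at no more than 0.214 CPM. B cell markers summed to 3.15 to 7.02 CPM with Ms4a1 at 0 in all libraries, dendritic cell markers to 3.73 to 6.33, neutrophil markers to 2.04 to 4.83 and melanoma markers to at most 22.2 CPM. Between populations in WT, edgeR called 4 markers of these and the CD8 list, beside 17% of all genes, and DESeq2 called none of them. The myeloid integrin gene Itgam was higher, at 3.67 ± 0.342 CPM in PD1+Tim3+ against 1.30 ± 0.373 CPM in PD1+Tim3- (adjusted p 0.0442), and Pecam1 was lower, at 22.8 ± 0.718 against 33.9 ± 3.68 CPM (adjusted p 0.0361). Itgam had 11 and 5 counts in the PD1+Tim3- WT libraries and passed the low-count filter through PD1+Tim3+ libraries. Its separation is thus in part a condition of its being tested. The T cell genes Cd8a (0.41 ± 0.12, adjusted p 0.0389) and Thy1 (0.45 ± 0.14, adjusted p 0.0423) were higher. Of the other macrophage markers tested, Cd14 gave -0.98 ± 0.32 (adjusted p 0.0584) and Ly6c2 0.36 ± 0.13 (adjusted p 0.0763). The part of these markers in the WT results was not tested. The 6 erythroid markers also moved with the groups, at 109 and 33.3 CPM in PD1+Tim3+ labelled dKO and 34.2 and 6.43 CPM in PD1+Tim3+ WT. In PD1+Tim3- they summed to 3.80 and 3.67 CPM labelled dKO and 8.10 and 3.52 CPM in WT. Between populations in cells labelled dKO edgeR called all 4 tested higher, at a median log2 fold change of 4.7, beside 5.21% of all genes. DESeq2 called Hba-a1, Hba-a2 and Hbb-bt there, and limma-voom called none. At sums this low in PD1+Tim3- libraries, the 4 genes would have passed the low-count filter mostly through PD1+Tim3+ libraries. Their separation between populations is thus in part a condition of their being tested. Between genotype labels in PD1+Tim3+ cells all 4 had an unadjusted p under 0.05 by edgeR, at a median of 2.1. Of these edgeR called none and DESeq2 called Hba-a2. The part of erythroid RNA in the differences between populations and between genotype labels was not tested.

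Genes of lymphoid homing and egress that change in T cells without KLF2 moved in both directions, while Klf2 itself was not called. Ccr7, the chemokine receptor gene of lymph node homing, fell between genotype labels among PD1+Tim3+ cells, to 46.6 ± 3.14 CPM with the label dKO, against 122 ± 2.73 CPM in WT. This call held in 17 of 17 alternatives. Among PD1+Tim3- cells Ccr7 gave -0.61 ± 0.11, adjusted p 0.109, which was not called. Between populations in cells labelled dKO, Ccr7 fell (-0.95 ± 0.11, adjusted p 0.000683), while Plac8 (0.82 ± 0.12, adjusted p 0.00272) and the egress receptor gene S1pr4 (0.53 ± 0.13, adjusted p 0.0315) rose. In WT, Plac8 (0.97 ± 0.12, adjusted p 0.000807), S1pr4 (0.61 ± 0.12, adjusted p 0.00715) and the chemokine receptor gene Cxcr3 (0.55 ± 0.11, adjusted p 0.00837) rose. S1pr1, the egress receptor that KLF2 drives directly, gave 0.33 ± 0.11 between genotype labels in PD1+Tim3+ cells, adjusted p 0.231, and was not called in any comparison. The S1pr4 call was lost without any 1 of several libraries, at an adjusted p of up to 0.164 in cells labelled dKO (PD1+Tim3- replicate 2 left out) and 0.0799 in WT (PD1+Tim3- replicate 1 left out). That of Cxcr3 was lost without PD1+Tim3- WT replicate 1 (adjusted p 0.0964) or either of the WT libraries of PD1+Tim3+, and that of Plac8 in cells labelled dKO without PD1+Tim3- replicate 1 (0.0741).

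Of 11 genes upstream of KLF2, 10 passed the low-count filter. Of these 10, 0 were called in any of the 4 comparisons by any of the 3 tools. In PD1+Tim3+ cells 1 had an unadjusted p under 0.05, Fbxw7, which encodes the substrate receptor of a ubiquitin ligase, at 0.31 ± 0.11, adjusted p 0.267. Among PD1+Tim3- cells there were 0 such genes, and Foxo1, the factor that drives Klf2 in resting T cells, gave -0.21 ± 0.12, adjusted p 0.668, beside -0.13 ± 0.11, adjusted p 0.721, in PD1+Tim3+ cells. Between populations in WT 2 genes had an unadjusted p under 0.05, Foxo3 (0.26 ± 0.11) and the kinase gene Map3k3 (-0.28 ± 0.12), and in cells labelled dKO 0 did. The list's median lay between -0.05 and 0.05 in the 4 comparisons.

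Of 8 quiescence genes linked to KLF2 and KLF4, 7 passed the low-count filter. Between populations 3 of these 7 were called in each genotype, beside 9.93% of all genes in cells labelled dKO and 17% in WT. Each time 2 were higher and 1 lower. By contrast 0 were called between genotype labels in either population by any of the 3 tools, with 2 at an unadjusted p under 0.05 in each. The largest values were those of Cdkn1a among PD1+Tim3+ cells (0.49 ± 0.12, adjusted p 0.122) and of the antiproliferative gene Tob1 among PD1+Tim3- cells (0.50 ± 0.10, adjusted p 0.133). Cdkn1a, which encodes the cell cycle inhibitor p21, rose between populations by 1.58 ± 0.13 in cells labelled dKO (adjusted p 3.75e-05) and 1.30 ± 0.12 in WT (adjusted p 0.000153), in 18 of 18 alternatives each. Btg2, an antiproliferative gene, rose by 0.65 ± 0.12 (adjusted p 0.00905) in cells labelled dKO and 0.51 ± 0.12 (adjusted p 0.0136) in WT. Myc, which drives growth, fell by 0.79 on the log2 scale in cells labelled dKO (adjusted p 0.00308) and by 0.42 in WT (adjusted p 0.0253). The calls of Btg2 and Myc were lost when 1 library was left out, at an adjusted p of up to 0.0954 for Btg2 and 0.0812 for Myc in cells labelled dKO (PD1+Tim3- replicate 2 and replicate 1), and of up to 0.108 and 0.163 in WT (PD1+Tim3+ replicate 1 for both). Cdkn1b, Elf4 and Btg1 were not called in any of the 4 comparisons.

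The remaining family genes were scarce. Of the 9 other KLF genes in the table, Klf8, Klf9, Klf11 and Klf16 passed the filter, and 0 of these 4 were called in any comparison by any of the 3 tools, with 0 at an unadjusted p under 0.05. Klf16 was the most abundant of them, at 28.2 ± 2.47 CPM in PD1+Tim3+ labelled dKO against 26.1 ± 2.11 CPM in PD1+Tim3+ WT. Klf8, a further CtBP-binding member, gave the largest value of the 4 comparisons, 0.67 ± 0.43 between genotype labels in PD1+Tim3- cells, adjusted p 0.718, and -0.72 ± 0.55 in the interaction. Klf11, the closest paralogue of Klf10, gave 0.27 ± 0.22 among PD1+Tim3+ cells and 0.28 ± 0.25 among PD1+Tim3- cells between genotype labels, adjusted p 0.702 and 0.809. Of the 9 SP genes, which encode the sister family that binds GC boxes, 5 passed the filter and 0 were called by edgeR in any comparison, with at most 2 at an unadjusted p under 0.05. Sp1 gave -0.25 ± 0.11 between populations in cells labelled dKO, adjusted p 0.2, and -0.32 ± 0.10 in WT, adjusted p 0.0605, and limma-voom called the WT value. Sp6, at few counts, gave 1.17 ± 0.50 and 1.11 ± 0.50 between genotype labels in PD1+Tim3+ and PD1+Tim3- cells, adjusted p 0.381 and 0.603.

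Whether a genotype difference depended on the population was tested as an interaction, the population contrast in cells labelled dKO minus that in WT. By edgeR 0 of 8 members were called, beside 0% of all genes, and 0 of 8 had an unadjusted p under 0.05, beside 10.1% of all genes. DESeq2 and limma-voom also called 0 members, with no adjusted p for Klf12 from DESeq2. The members' values ran from -0.28 ± 0.17 for Klf2 (adjusted p 0.632) to 0.32 ± 0.79 for Klf12 (adjusted p 0.921). The 95% intervals limit the interaction to -0.54 to 0.34 for Klf3, -0.15 to 0.66 for Klf4 and -0.45 to 0.32 for Klf6, and differences within these intervals were not detectable with 2 libraries per group.

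Counted by groups that do not overlap, among PD1+Tim3+ cells 3 members were higher with the label dKO than in WT and 2 were lower, beside 20.7% of all genes each way. Among PD1+Tim3- cells 3 were higher and 3 lower, beside 20.3% and 21%. Between populations 5 members were higher and 2 lower in each genotype, but not the same ones. The shares of all genes were 26.2% and 24.7% in cells labelled dKO and 32.7% and 30.3% in WT. Klf6, Klf10, Klf12 and Klf13 were higher and Klf3 lower in both genotypes. In cells labelled dKO Klf7 was also higher and Klf2 lower, and in WT Klf2 was also higher and Klf4 lower. The separation of Klf12 is in part a condition of its being tested. The genotype contrasts share no library, and the population contrasts share none either, while each genotype contrast shares a group with each population contrast.

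The genes whose log2 levels ran most like those of the called members over the 8 libraries were, among 13072 compared, Pik3ip1 (Pearson r 0.987), Mybbp1a (0.981) and Sp1 (0.978) for Klf3. For Klf6 they were Metrnl (0.993), Lrrk1 (0.992) and Glipr1 (0.984). For Klf10 they were Gm16486 (0.987), Scd2 (0.985) and Kdm6b (0.976). With 8 libraries in 4 groups such values describe shared group patterns.

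**Figure D4:**
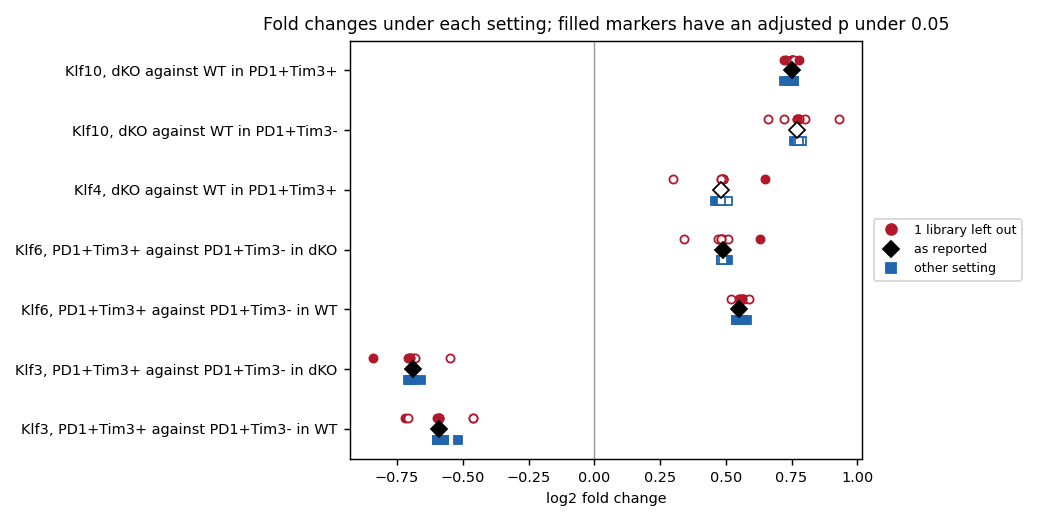
Log2 fold change (x axis) of the leading members under each alternative, with 1 row per gene and comparison, circles for fits with 1 library left out, squares for other settings and the diamond for the reported value, filled where the adjusted p is under 0.05. All values of a row share their sign, and open circles beside a filled diamond are calls that end when 1 library is left out.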

How the data were processed

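The authors deposited 1 table of raw counts per gene for the 8 libraries, made, per the submitters' processing notes, with cutadapt 1.18, Bowtie2 2.2.5 and genome build mm10; no source used here gives the counting tool or the strand setting. The bottom row, which holds the column sums under a blank gene name, was dropped. Counts were tested with the edgeR 4.0.16 quasi-likelihood F test in R 4.3.3, after TMM scaling and filterByExpr (minimum count 10), as 1 fit of 4 group means with 4 residual degrees of freedom. P-values were Benjamini-Hochberg adjusted over all 13073 genes, and genes under 0.05 were called. Errors of fold changes are standard errors, intervals cover 95%, and levels are means with the SD of 2 libraries. Total counts were 1944999 to 13418762, and replicates differed by more than counting noise (chi-square per gene 3.16 to 17.5).

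Alternatives were DESeq2 1.42.0, its size factors in edgeR, limma-voom (limma 3.58.1), upper-quartile scaling, no low-count filter, robust empirical Bayes, a transcript length offset (lengths for 92% of tested genes), only the 4 libraries compared, a replicate block and each library left out. The differences between replicates correlated at -0.181 to 0.0231 between groups, which shows no pairing by replicate number but cannot exclude that 2 libraries share a host.

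The 8 members and the gene lists were chosen with earlier results of these data known. All members were named in every comparison. Genes of the family and pathway lists were named when called, otherwise up to 4 with the largest change. Of the cell type marker lists, sums and defining markers are given, and called genes are named or counted. Genes of like pattern are the 3 with the highest Pearson correlation of log2 CPM (prior count 2). A few uncalled list genes and the promoter motifs were chosen after their values or letters were seen. Promoters came from RefSeq (GRCm38.p6). A gene of the homing list is not reported here, nor are counts over that list.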

Additional observations from a re-analysis of the deposited data

Results flagged for a closer look

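Klf2 was the member whose libraries moved in opposite ways across the design. Between genotype labels it gave -0.20 among PD1+Tim3+ cells and 0.07 among PD1+Tim3- cells (log2 fold change), and between populations -0.16 in cells labelled dKO and 0.12 in WT, with no overlap between the groups in any of the 4. With 2 libraries per group a separation in a single comparison is common. Of all genes, 20.7%, 20.3%, 24.7% and 32.7% were apart in the same direction, each in its own comparison, in the order given. The share of genes with the 4 separations together was not counted. The difference itself was tested as the interaction, -0.28 ± 0.17 with an adjusted p of 0.632 by edgeR, and did not pass, and its range over the fits with 1 library left out was -0.37 to -0.18.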

How the results depend on the processing

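The main limit is the 2 libraries per group. Each fit with 1 library left out also changed the set of genes tested, the scaling and the shared estimate of spread, so a call in 1 comparison could turn on a library outside it. The number of called members in PD1+Tim3- labelled dKO against WT, 0 as reported, was 1 without the low-count filter and 1 with robust empirical Bayes (Klf10 in both), and 0 to 1 with 1 library left out. In PD1+Tim3+ cells the reported 1 became 2 without the low-count filter (Klf10 and Klf4), and was 0 to 2 with 1 library left out. Between populations in WT the reported 3 was 2 under DESeq2, 4 with upper-quartile scaling, robust empirical Bayes, no low-count filter or the 4 libraries alone, and 0 to 4 with 1 library left out. In cells labelled dKO the reported 2 became 3 under limma-voom and without the low-count filter (Klf12 added), 1 under DESeq2, 1 in a fit of the 4 libraries alone, 1 with the replicate block and 1 with the replicate block within genotype (Klf3 in each), and was 0 to 2 with 1 library left out. The interaction gave 0 in every alternative.

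The replicate block gave 0 and 1 called members between genotype labels in PD1+Tim3- and PD1+Tim3+ cells, and 2 between populations in WT, where Klf10 was lost (adjusted p 0.0534). Whether the replicate numbers pair the libraries is not settled, so the block is given as a further setting.

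Signs changed only for members not called in that comparison, and the cause was not tested. Klf4 between populations in cells labelled dKO gave -0.01 under limma-voom and -0.01 with the length offset, and -0.17 to 0.17 with 1 library left out. Klf7 between populations in WT gave 0.03 under upper-quartile scaling, 0.02 without the filter, 0.03 with the length offset, 0.0018 with the replicate block and 0.0019 with the block within genotype, and -0.14 to 0.15 with 1 library left out. With 1 library left out, the ranges that crossed 0 between genotype labels were -0.23 to 0.06 for Klf7 in PD1+Tim3+ cells, -6.11 to 0.51 for Klf12 and -0.07 to 0.06 for Klf13 in PD1+Tim3- cells. For the interaction they were -0.25 to 0.04 for Klf3, -0.22 to 0.08 for Klf6, -0.03 to 0.26 for Klf7, -0.18 to 0.09 for Klf10, -0.37 to 6.26 for Klf12 and -0.10 to 0.03 for Klf13. The extremes of Klf12 arise without replicate 1 of PD1+Tim3- labelled dKO, which leaves that group at 0 counts.

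Over all genes, calls in PD1+Tim3+ cells between genotype labels (82) were 486 without the filter, 38 in the fit of 4 libraries, 40 with the block and 6 to 413 with 1 library left out. In PD1+Tim3- cells (6) they were 0 under limma-voom, 232 without the filter, 3 in the fit of 4 libraries, 0 with the block, 56 with robust empirical Bayes and 0 to 31 with 1 library left out. Between populations they were 1314 under DESeq2 and 433 to 2773 with 1 library left out in WT (2223), and 716 with the block and 132 to 1392 in cells labelled dKO (1298). For the interaction (0) they were 109 under DESeq2, 331 without the filter, 4 with robust empirical Bayes and 0 to 323.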
